A study of Heterocephalus glaber with 2 samples.

Results

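In the skin of the naked mole-rat (Heterocephalus glaber), a long-lived subterranean rodent, 2316 expressed loci carried no gene symbol in the gene tables. They were chosen as loci whose gene name held Ensembl identifiers only, whose Description did not mark an RFAM structural RNA, and whose FPKM averaged at least 1 over the libraries. FPKM, fragments scaled to transcript length and library size, is a level per length and can be compared between loci of a library. The tables list 24514 loci in all, of which 12753 reached that mean and 8134 had Ensembl identifiers only, whatever their level. The mean FPKM therefore took part in the choice, so the levels below are a description.

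The study compared full-thickness dorsal skin of old animals aged 19 years with that of young animals aged 4 years, the question being which skin transcripts change as the animals age. Per age there were 2 libraries of total RNA depleted of ribosomal RNA, here named old 1, old 2, young 1 and young 2 after the numbers in the tables. Whether both libraries of an age were from separate animals, 1 animal or a pool is not stated in the labels. The p-values below thus rest on library-to-library spread alone, and that spread may be technical. No treatment or mutation is given for either age.

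A locus lacks a symbol in a genome annotation mostly where its naming against human or mouse genes is unsettled. Common cases are members of families with many similar copies, such as globins, histones, cytochrome P450 enzymes and MHC genes, processed copies of highly expressed genes, and lineage-specific or short non-coding transcripts. Such loci are left out when a list is read by symbol, although many encode well-known proteins.

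A product was named in the Description of 1517 of the 2316 loci, or 65.5%, against 99.9% of the 10437 other loci that reached the minimum mean. Another 379 had no Description but a Gene Ontology (GO) term, and 420 had neither. NCBI gene numbers in the Description led to a RefSeq gene for 1433 loci. RefSeq gave 1171 of them a symbol and 262 only a number with the prefix LOC. The share with only such a LOC name was 11.3%, against 1.62% of the other loci. RefSeq called 1409 protein coding and 22 pseudogenes, and no pseudogene was among the other loci. A single transcript was listed for 76.3% of the loci without a symbol, against 63.3% of the others. Most products belonged to 1 locus (1478 products), whereas 15 product texts were shared by 39 loci, the most repeated being 40S ribosomal protein S24 with 5 loci.

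These loci held 10.9% and 17.2% of the summed FPKM in old 1 and old 2, against 11.4% and 18.6% in young 1 and young 2. Their median level was 5.32 FPKM in old 1 and 3.06 FPKM in old 2, against 4.97 FPKM in young 1 and 3.32 FPKM in young 2. The libraries thus differed more by number than by age on both measures. Every library exceeded 1 FPKM at 1570 of the loci, or 67.8%, against 82.2% of the other loci. At least 1 library stood at the floor of the tables, 0.0001 FPKM, for 160 loci, or 6.91%, against 1.44% of the others. At the minimum itself, UNC13A (MSTRG.99935), a factor of synaptic vesicle release, lay just inside with 1.35 and 0.829 FPKM in old skin and 0.903 and 0.917 FPKM in young skin. Just outside lay protein yippee-like 2 (MSTRG.2627) with 1.55 and 1.00 FPKM in old skin, against 1.44 FPKM in young 1 and the floor in young 2.

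The skin identity of the libraries was clear from epidermal keratins, with KRT1 and KRT10 together at 2137 and 4918 FPKM in old skin, against 2010 and 5033 FPKM in young skin. The basal keratins KRT5 and KRT14 together were at 935 and 697 FPKM in old skin, against 947 and 2105 FPKM in young skin, lower in old skin mainly in number 2. Muscle markers were also high, 4 of 6 matched by symbol, at 2997 and 2851 FPKM in old skin and 2382 and 2301 FPKM in young skin. The libraries split by number in RNA content: RFAM structural RNA loci, none of them in the set described here, took 51.4% of the summed FPKM in old 1 and 0.773% in old 2, against 47.0% in young 1 and 0.593% in young 2. Across the 2316 loci the log2 levels of old 1 and young 1 correlated at 0.938 and those of old 2 and young 2 at 0.939. The same correlation was 0.676 between old 1 and old 2, and 0.686 between young 1 and young 2. These are correlations across loci, which are not independent replicates. Old was therefore compared with young within each number as well as over all 4 libraries. A ratio within a number sets 1 library against 1 library and has no replicate check.

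No locus without a symbol passed the test of age over the 4 libraries, limma on log2(FPKM + 1) with adjustment over all 12753 tested loci at 0.05. The share of all tested loci called was 0.0% in each direction, and the lowest adjusted p of a locus without a symbol was 0.999992. At an unadjusted p of 0.05, 7 of the loci without a symbol were higher and 6 lower in old skin, or 0.302% and 0.259%, against 0.196% and 0.416% of all tested loci. The model held age alone, so differences between library numbers counted as spread within an age and made it hard for any locus to pass. With the number as a block in limma, 3.24% were higher and 3.58% lower at that unadjusted p. The shares of all tested loci were then 2.96% and 3.61%. Fits with 1 library left out set unequal numbers against each other, so a locus that differs between numbers can be called in them. For a single value, 2 libraries against 2 cannot go below an exact two-sided permutation p of 0.333.

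Within the numbers, 13 of the 2316 loci were at least 2-fold higher in old skin in both numbers, on the scale of log2(FPKM + 1), or 0.561% against 0.314% of all tested loci. At least 2-fold lower in both numbers were 12 loci, or 0.518% against 0.557% of all tested loci. In number 1 alone, 96 loci were at least 2-fold higher (4.15%, against 2.36% of all tested loci) and 70 at least 2-fold lower (3.02%, against 1.83%). In number 2 alone, 108 were at least 2-fold higher (4.66%, against 4.33%) and 134 at least 2-fold lower (5.79%, against 5.55%). Of the loci past 2-fold in both numbers, 7 of the 13 and 7 of the 12 averaged at least 1 FPKM in both ages, and the others entered the set through the age in which they were high. The groups did not overlap for 9 of the 13 and 9 of the 12. The choice by 2-fold in both numbers favours such separation, so these counts are no support and cannot be set against the shares that follow. Over all 2316 loci, both old libraries stood above both young ones at 128 loci (5.53%, against 7.3% of all tested loci) and below them at 131 (5.66%, against 6.46%). For the 2316 loci the log2 ratios had a median of 0.08 in number 1 and of -0.08 in number 2, beside 0.07 and -0.06 over all tested loci. The ratios of the numbers were all but unrelated across the 2316 loci, with a Pearson correlation of 0.0958 and a Spearman correlation of 0.00595, given as a description. The plot of both ratios shows this round cloud and the few loci that left it along the diagonal.

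**Figure D1:**
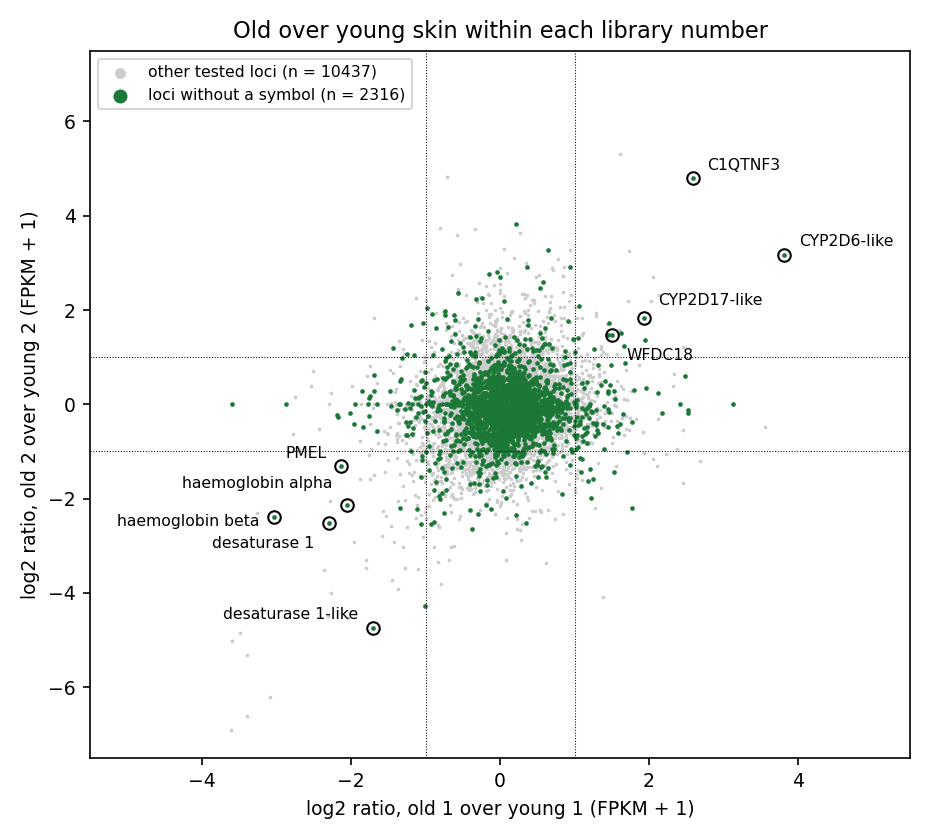
Log2 ratio of FPKM + 1, old over young, in number 1 (x axis) and number 2 (y axis) for the 2316 loci without a symbol (green) and the 10437 other tested loci (grey). Dotted lines mark 2-fold, 13 loci without a symbol lie past both lines at the upper right and 12 at the lower left, and the circled loci are described in the text.

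Cytochrome P450 enzymes of the 2D family gave the highest ratio that held in both numbers. These haem monooxygenases of the endoplasmic reticulum oxidise many drugs and other foreign compounds and are best known from liver. MSTRG.33704, described as cytochrome P450 2D6-like and protein coding in RefSeq, had 18.2 and 9.37 FPKM in old 1 and old 2, against 0.361 and 0.150 FPKM in young 1 and young 2. Both old libraries were far above both young ones, by 50.4-fold in number 1 and 62.3-fold in number 2 on FPKM. The locus was known for this pattern from earlier work on these tables, so it is given without a test. Both young libraries were under 1 FPKM, so it entered the set through the old ones, and its lack of overlap is no support. The folds divide by these low young levels.

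A second P450 locus, MSTRG.33711, described as cytochrome P450 2D17-like, had 8.22 and 10.9 FPKM in old skin, against 1.42 and 2.33 FPKM in young skin. Its groups did not overlap either, and its log2 difference in the limma fit was 1.88 (SE 0.50, unadjusted p = 0.0107, which did not pass after adjustment). Other 2D loci did not share this. MSTRG.33707, cytochrome P450 2D16, had 3.23 and 9.60 FPKM in old skin, against 5.70 and 9.93 FPKM in young skin, with overlapping groups. Another 2D17-like locus, MSTRG.33712, was under the minimum mean, with 0.106 and 0.0350 FPKM in old skin and 0.425 and 0.135 FPKM in young skin. Similar copies may share reads in the authors' counting, so the split among these 2D loci is uncertain.

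The other detoxification loci, grouped by words of the Description (12 with the 2D loci), did not move together. Cytochrome P450 2A3 (MSTRG.101654) had 42.9 and 3.34 FPKM in old skin, against 27.8 and 11.6 FPKM in young skin, higher in number 1 and lower in number 2. Cytochrome P450 2B4 (MSTRG.104067) likewise had 3.19 and 0.0302 FPKM in old skin, against 0.968 and 1.80 FPKM in young skin. Old skin was higher in both numbers at 3 of the 12 loci and lower in both at 4, where the shares over all tested loci were 26.7% and 23.1%. In number 1 the group's median log2 ratio was 0.32, and in number 2 it was -0.31.

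The remaining concordantly higher loci with a name had assorted products. C1QTNF3 (MSTRG.41495), a secreted C1q/TNF-related protein also known as CTRP3, had 10.5 and 38.9 FPKM in old skin, against 0.910 and 0.441 FPKM in young skin. The groups did not overlap, and the log2 difference was 3.69 (SE 0.72). The locus averaged under 1 FPKM in young skin and so entered the set through the old libraries, and no p-value is given for it. With each library left out in turn the log2 difference ran from 2.79 to 4.59. Family members that have a symbol went both ways. C1QTNF6 had 0.949 and 0.360 FPKM in old skin, against 22.7 and 42.9 FPKM in young skin, and C1QTNF1 had 13.2 and 10.1 FPKM in old skin, against 18.9 and 28.0 FPKM in young skin. Higher in old skin in both numbers were C1QTNF5, with 6.14 and 37.5 FPKM in old skin and 4.04 and 16.9 FPKM in young skin, and C1QTNF7, with 3.22 and 11.1 FPKM in old skin and 2.19 and 6.06 FPKM in young skin.

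PPP1R1A (MSTRG.99278), an inhibitor subunit of protein phosphatase 1, had 6.87 and 12.0 FPKM in old skin, against 1.56 and 3.53 FPKM in young skin, without overlap. GDF11 (MSTRG.72988), a ligand of the TGF-beta family, had 11.8 and 4.15 FPKM in old skin, against 5.14 and 0.215 FPKM in young skin. Old 2 stood below young 1, so its groups overlapped. GDF11 passed 2-fold in both numbers but not the rule for naming loci, and was added after its values were seen.

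WAP four-disulfide core domain protein 18 (MSTRG.94386) was among the loci of highest level. WAP domain proteins are small secreted proteins, several of which inhibit serine proteases. Its level was 1036 and 4416 FPKM in old skin, against 364 and 1597 FPKM in young skin, or 2.85-fold in number 1 and 2.76-fold in number 2. Young 2 exceeded old 1, so the groups overlapped over all 4 libraries, and the log2 difference of 1.49 had an SE of 1.59. The remaining protease inhibitors differed from it: cystatin-C (MSTRG.102543), an inhibitor of cysteine proteases, had 199 and 685 FPKM in old skin, against 199 and 1205 FPKM in young skin. SERPINB7 (MSTRG.66915), an epidermal serine protease inhibitor, had 37.0 and 14.6 FPKM in old skin, against 15.5 and 15.2 FPKM in young skin.

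Also among the higher loci were proteins of the nucleus. SNRNP70 (MSTRG.85140), the 70K protein of the U1 splicing particle, had 24.4 and 59.6 FPKM in old skin, against 9.63 and 25.9 FPKM in young skin, with overlap between old 1 and young 2. A copy of the nucleosome-binding protein HMG-17 (MSTRG.40871) had 4.25 and 5.48 FPKM in old skin, against 0.922 and 1.33 FPKM in young skin, without overlap. The main locus of the same protein, HMGN2 (MSTRG.45971), stood otherwise, with 112 and 108 FPKM in old skin and 119 and 165 FPKM in young skin. The copy and HMGN2 may share reads, so the copy's level is uncertain.

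The other 5 of the 13 had no Description. MSTRG.21298, with GO terms for helicase activity and ATP binding, had 2.04 and 2.75 FPKM in old skin, against 0.106 and 0.130 FPKM in young skin. MSTRG.90665, with GO terms of a voltage-gated anion channel of the outer mitochondrial membrane, had 3.71 and 1.57 FPKM in old skin, against 0.226 FPKM in young 1 and the floor in young 2. MSTRG.73301, with GO terms for RNA binding and processing, had 3.35 and 1.37 FPKM in old skin, against 0.372 FPKM in young 1 and the floor in young 2. In each of these the old libraries stood above the young ones, at levels of a few FPKM. Their young libraries were all under 1 FPKM, so they entered the set through the old ones. Their direction is thus partly built in, and their lack of overlap is no support. The last of the 13 passed 2-fold outside the rule for naming loci and have no annotation. MSTRG.92078 had 2.27 and 3.73 FPKM in old skin, against 0.583 and 0.785 FPKM in young skin, and it too entered the set through the old libraries. MSTRG.86409 had 10.3 and 1.84 FPKM in old skin, against 4.63 and 0.320 FPKM in young skin, with old 2 below young 1.

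**Figure D2:**
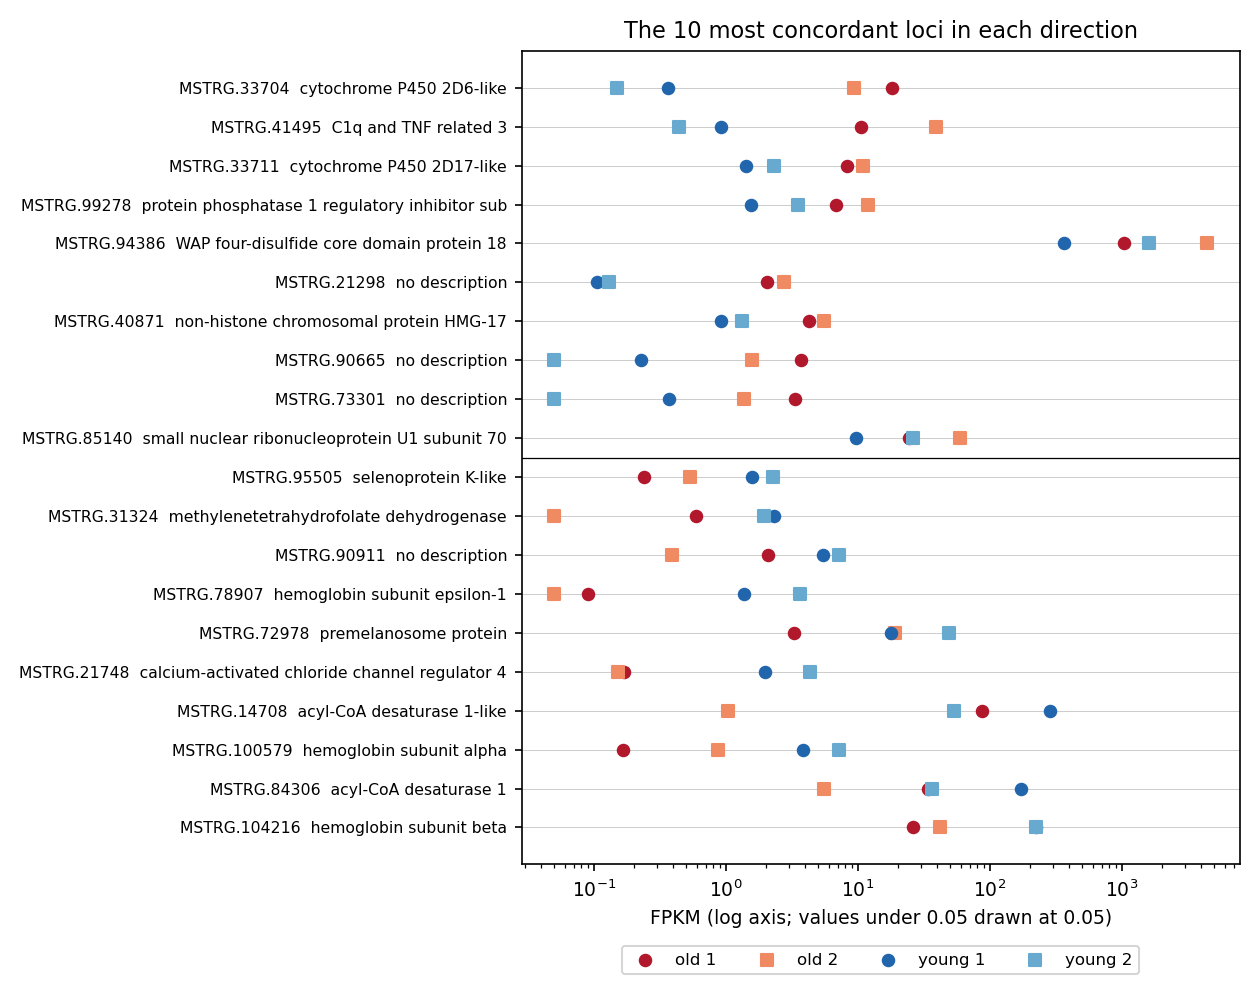
FPKM (log axis) in each library for the 10 loci per direction whose within-number ratios agreed most. Loci higher in old skin lie above the dividing line and loci lower in old skin below it. Red circles and squares are old 1 and old 2, blue circles and squares are young 1 and young 2. WFDC18, SNRNP70, PMEL and the desaturase 1-like locus have overlapping ages, and the other 16 do not. The choice by agreement favours such separation, so it is no support. The young points of haemoglobin beta coincide at 223 FPKM.

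Among the loci lower in old skin, the haemoglobins came first. Haemoglobin carries oxygen in red cells, with alpha and beta chains in adult blood and the epsilon chain in the embryo of many mammals. Haemoglobin beta (MSTRG.104216) had 26.3 and 41.6 FPKM in old skin, against 223 FPKM in each of the young libraries. The groups were well apart, with a log2 difference of -2.71 (SE 0.64, unadjusted p = 0.00647, which did not pass after adjustment).

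Haemoglobin alpha without a symbol (MSTRG.100579) had 0.165 and 0.874 FPKM in old skin, against 3.84 and 7.20 FPKM in young skin. The epsilon-1 locus (MSTRG.78907) had 0.0897 FPKM in old 1 and the floor in old 2, against 1.36 and 3.66 FPKM in young skin. All 3 haemoglobin loci without a symbol were lower in both numbers, where 23.1% of all tested loci were, and none of the 3 passed the test. Their median log2 ratios were -2.05 and -2.22. The alpha and epsilon-1 loci were under 1 FPKM in both old libraries and entered the set through the young ones. The direction of these loci is thus partly built in, and they set both medians. The symbol-bearing HBA2 stood the same way, at 25.9 and 150 FPKM in old skin and 258 and 750 FPKM in young skin. The summed red cell markers, HBA2 with HBZ, ALAS2 and CA1, were at 27.7 and 152 FPKM in old skin, against 266 and 757 FPKM in young skin. HBA2 made up most of that sum. ALAS2 stood at 1.71 and 1.67 FPKM in old skin and 6.92 and 3.79 FPKM in young skin. HBZ was at the floor in old skin, with 1.15 and 2.93 FPKM in young skin. CA1 had the floor and 0.240 FPKM in old skin, against 0.530 and 0.146 FPKM in young skin, higher in old skin in number 2. The part of red cell content in the haemoglobin values was not tested. In bulk tissue, fewer cells of a type and less RNA per cell cannot be told apart.

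Acyl-CoA desaturases, which place the first double bond in saturated fatty acids, were the second kind. Acyl-CoA desaturase 1 (MSTRG.84306) had 34.2 and 5.51 FPKM in old skin, against 172 and 36.3 FPKM in young skin. Both old libraries were below both young ones, and the log2 difference was -2.41 (SE 1.12, unadjusted p = 0.0787). It too depended on single libraries, from -3.63 without old 1 to -1.19 without old 2. The desaturase 1-like locus (MSTRG.14708) had 86.4 and 1.04 FPKM in old skin, against 285 and 53.6 FPKM in young skin. Here old 1 was above young 2, and the log2 difference was -3.22 (SE 1.86). It rested on single libraries: it was -0.51 without old 2 and -2.03 without young 1, with an adjusted p of 1 in each, -4.42 without young 2 with an adjusted p of 0.113, and -5.93 without old 1 with an adjusted p of 3.88e-05. Both loci may share reads. The related SCD5, which has a symbol, stood at 7.45 and 4.78 FPKM in old skin and 9.20 and 5.54 FPKM in young skin. Adipocyte markers summed to 656 and 139 FPKM in old skin and 390 and 247 FPKM in young skin, higher in old skin in number 1 and lower in number 2. The part of adipocyte content in the desaturase values was not tested.

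The rest of the lipid loci, 11 with the desaturases, ran both ways. Apolipoprotein L6-like (MSTRG.34112) had 3.71 and 1.94 FPKM in old skin, against 0.901 and 0.643 FPKM in young skin. Both young libraries were under 1 FPKM, so it entered the set through the old ones, and its lack of overlap is no support. Apolipoprotein L6 (MSTRG.34108) had 100 and 1.99 FPKM in old skin, against 55.4 and 2.98 FPKM in young skin. These similar loci may share reads. Only the L6-like locus was higher in both numbers, and 5 of the 11 lipid loci were lower in both. These are 9.09% and 45.5% of the 11, beside 26.7% and 23.1% of all tested loci. Fatty acid binding protein 5 (MSTRG.24077), an epidermal carrier of fatty acids, had 13.2 and 10.7 FPKM in old skin, against 8.97 and 33.2 FPKM in young skin.

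The other lower loci had assorted products. CLCA4 (MSTRG.21748), a regulator of chloride channels, had 0.170 and 0.153 FPKM in old skin, against 1.97 and 4.30 FPKM in young skin. MTHFD2 (MSTRG.31324), a mitochondrial enzyme of folate metabolism, had 0.589 FPKM in old 1 and the floor in old 2, against 2.32 and 1.93 FPKM in young skin. A selenoprotein K-like locus (MSTRG.95505), a protein of the endoplasmic reticulum membrane, had 0.240 and 0.537 FPKM in old skin, against 1.57 and 2.28 FPKM in young skin. These 3 loci had separate groups at levels of a few FPKM in young skin and under 1 FPKM in old skin. They entered the set through the young libraries, so their direction is partly built in and their lack of overlap is no support.

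PMEL (MSTRG.72978), which forms the fibrils of the melanosome, had 3.30 and 19.2 FPKM in old skin, against 17.9 and 49.3 FPKM in young skin. Old 2 slightly exceeded young 1, so the groups overlapped. Of the other melanocyte markers, DCT stood at 2.78 and 3.14 FPKM in old skin, against 7.96 and 8.49 FPKM in young skin. TYRP1 stood at 4.65 and 18.8 FPKM in old skin, against 9.87 and 37.0 FPKM in young skin. The part of melanocyte content in the PMEL value was not tested. The precursor of epidermal growth factor (MSTRG.86997), added after its values were seen, had 3.85 and 0.491 FPKM in old skin, against 8.98 and 2.36 FPKM in young skin. Without a Description, MSTRG.90911 had 2.10 and 0.388 FPKM in old skin, against 5.48 and 7.13 FPKM in young skin. MSTRG.81875, also added after its values were seen, had 19.7 and 0.995 FPKM in old skin, against 40.4 and 37.6 FPKM in young skin.

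Antigen presentation was represented by 4 MHC loci. Class II beta chains and class I alpha chains present peptides to T cells. The DRB1-4-like beta chain (MSTRG.36836) had 45.0 and 81.4 FPKM in old skin, against 66.0 and 160 FPKM in young skin, with old 2 above young 1. The DRB1-13-like locus (MSTRG.36838) had 0.674 and 1.33 FPKM in old skin, against 1.98 and 4.20 FPKM in young skin, without overlap. The class I locus (MSTRG.36921) had 15.6 and 28.2 FPKM in old skin, against 18.6 and 49.3 FPKM in young skin. DRB1-15-like (MSTRG.36839) had 0.379 and 0.450 FPKM in old skin and 0.663 FPKM in young 1. Only young 2 exceeded 1 FPKM, so this locus entered the set through young skin and its direction is partly built in. With it, all 4 MHC loci were lower in both numbers, where 23.1% of all tested loci were, and none passed the test. The other members of the group of 6 are an immunoglobulin-binding phosphatase regulator and a protein with an immunoglobulin-like motif, neither of them an antigen receptor or MHC protein. Immune markers summed to 66.9 and 203 FPKM in old skin, against 113 and 500 FPKM in young skin, and the part of immune cell content was not tested. CD74, the class II invariant chain, made up most of that sum, at 51.7 and 157 FPKM in old skin and 84.1 and 397 FPKM in young skin. LYZ stood at 5.78 and 37.8 FPKM in old skin and 14.0 and 51.6 FPKM in young skin. MZB1 stood at 1.18 and 5.11 FPKM in old skin and 7.50 and 45.0 FPKM in young skin. PTPRC, which marks leukocytes in general, stood at 5.91 and 2.20 FPKM in old skin and 6.43 and 3.82 FPKM in young skin. CD3E, of T cells, stood at 2.31 and 1.16 FPKM in old skin and 0.857 and 2.49 FPKM in young skin. MHC loci have similar copies that may share reads.

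Cytokine and innate defence products counted 30 loci, 3 higher and 11 lower in both numbers, and none passed the test. These are 10.0% and 36.7% of the 30, beside 26.7% and 23.1% of all tested loci. The group's log2 ratios had a median of -0.18 in number 1 and of -0.21 in number 2. S100A8 (MSTRG.96405), a calcium-binding protein of neutrophils and stressed keratinocytes, had 10.4 and 34.7 FPKM in old skin, against 2.56 and 18.5 FPKM in young skin. It was higher in old skin in both numbers, but young 2 exceeded old 1. The alpha subunit of the interleukin 11 receptor (MSTRG.14113) had 9.78 and 7.02 FPKM in old skin, against 17.5 and 28.6 FPKM in young skin. The gamma subunit of the interleukin 2 receptor (MSTRG.98966) had 3.64 and 7.47 FPKM in old skin, against 6.74 and 12.0 FPKM in young skin, with overlap.

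Old 2 alone was high for several defence loci. A C-C motif chemokine 15-like locus (MSTRG.95055) had 2.21 and 39.5 FPKM in old skin, against 2.57 and 4.99 FPKM in young skin. IFITM3 (MSTRG.48551), an interferon-induced membrane protein that hinders virus entry, had 2.07 and 12.3 FPKM in old skin, against 3.54 and 1.58 FPKM in young skin. The same library was highest for SPRR1B (MSTRG.96369), a cornified envelope precursor induced in stressed epidermis, at 1.95 and 59.6 FPKM in old skin, against 0.890 and 5.25 FPKM in young skin. These loci were chosen after their values were seen.

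Matrix loci without a symbol numbered 8. COL16A1 (MSTRG.46265), a fibril-associated collagen, had 7.07 and 7.55 FPKM in old skin, against 12.6 and 41.4 FPKM in young skin. COL9A3 (MSTRG.21147), a fibril-associated collagen best known from cartilage, had 0.875 and 1.43 FPKM in old skin, against 2.57 and 13.2 FPKM in young skin. Both collagens had separate groups, and neither passed the test. The laminin chains of the epidermal basement membrane did not follow them, with LAMA3 (MSTRG.51533) at 10.4 and 9.07 FPKM in old skin and 9.25 and 5.40 FPKM in young skin. LAMB3 (MSTRG.74843) stood at 6.73 and 11.0 FPKM in old skin and 9.82 and 8.97 FPKM in young skin. The 5 fibroblast markers together were at 1363 and 684 FPKM in old skin, against 6585 and 9343 FPKM in young skin. Most of that gap lay in COL1A1, COL1A2 and COL3A1, of which COL1A1 had 196 and 41.4 FPKM in old skin and 2079 and 4121 FPKM in young skin. DCN stood at 197 and 140 FPKM in old skin and 204 and 248 FPKM in young skin. VIM stood at 613 and 459 FPKM in old skin and 428 and 559 FPKM in young skin, higher in number 1 and lower in number 2. The part of fibroblast content in the values of COL16A1 and COL9A3 was not tested.

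Among cytoskeletal loci, tubulin beta class I (MSTRG.36977), a subunit of microtubules, had 75.3 and 30.3 FPKM in old skin, against 133 and 119 FPKM in young skin, without overlap. The tubulin alpha-1B-like locus (MSTRG.78290) stood close together in all libraries, at 182 and 189 FPKM in old skin and 176 and 229 FPKM in young skin. Myosin light chain 6 (MSTRG.72943), of non-muscle and smooth muscle myosin, had 209 and 462 FPKM in old skin, against 219 and 1010 FPKM in young skin. Of the 17 cytoskeletal loci 2 were higher and 5 lower in both numbers, or 11.8% and 29.4%, beside 26.7% and 23.1% of all tested loci. The keratin 6A-like locus (MSTRG.99081), a keratin of stressed epidermis and of hair follicles, had 31.5 and 13.2 FPKM in old skin, against 36.1 and 61.5 FPKM in young skin.

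Most product groups showed no common direction. Mitochondrial respiration (16 loci) had median log2 ratios of 0.01 and 0.00. For proteostasis (47 loci) they were 0.19 and -0.11, with 15 loci higher and 10 lower in both numbers, or 31.9% and 21.3%, beside the same 26.7% and 23.1%. Its inducible chaperone HSP70 1B (MSTRG.36873), described outside the rule for naming loci, had 51.4 and 130 FPKM in old skin. Its level was 34.4 and 48.1 FPKM in young skin, without overlap. Zinc finger loci (82) had 0.14 and -0.08, and receptor and transport loci (72) had -0.01 and 0.03. The 5 metal and redox loci included ferritin heavy chain (MSTRG.101709), which stores iron, at 134 and 822 FPKM in old skin and 114 and 433 FPKM in young skin. The plot of group medians shows how the groups lie on both numbers.

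**Figure D3:**
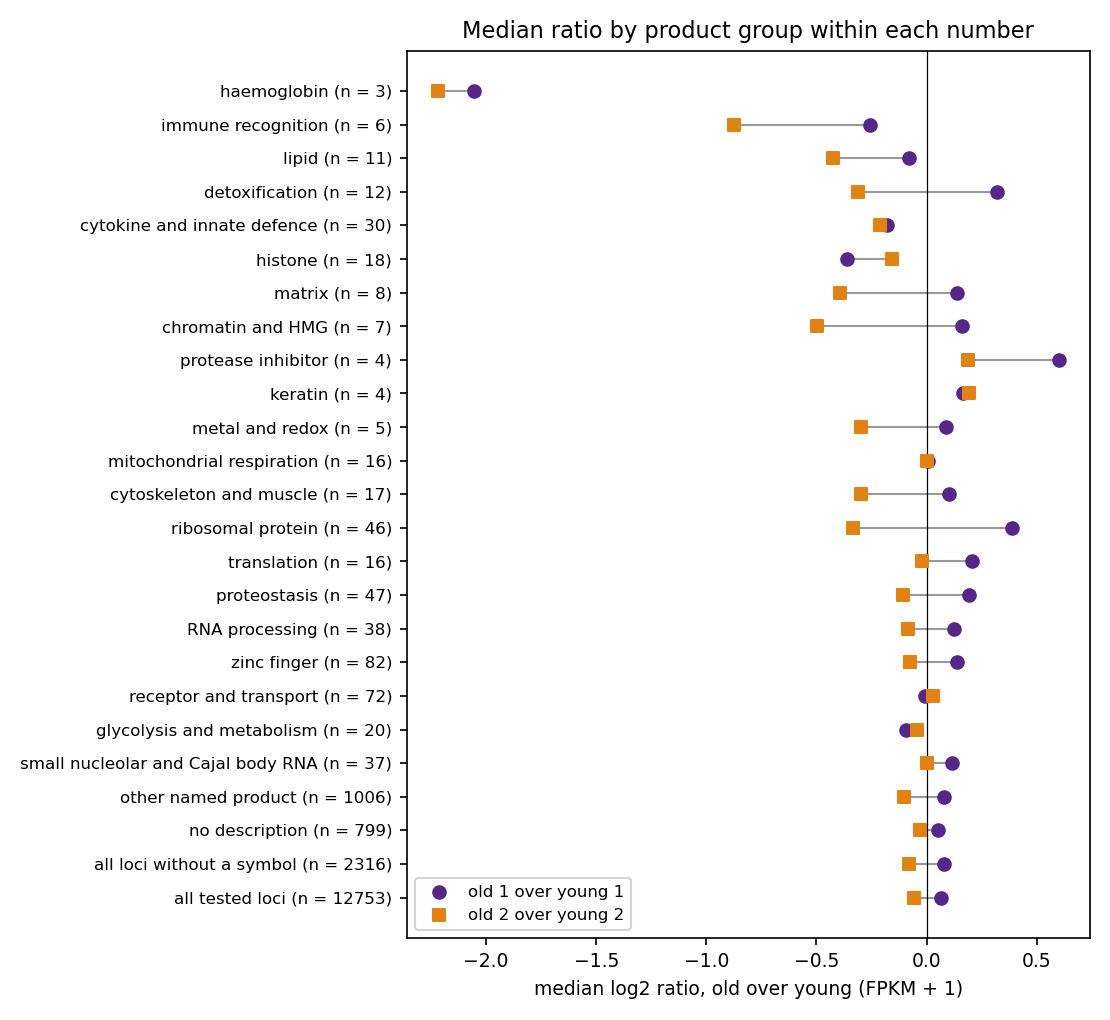
Median log2 ratio of FPKM + 1, old over young, for each product group in number 1 (purple circles) and number 2 (orange squares), with the number of loci in brackets. Haemoglobin, whose alpha and epsilon-1 loci entered the set through the young libraries, lies far to the left in both numbers at -2.05 and -2.22. Ribosomal proteins lie at 0.39 in number 1 and -0.33 in number 2, on either side of 0.

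Ribosomal proteins were among the highest loci and mostly had opposite ratios in the numbers. They build the subunits of the ribosome, and mammalian genomes hold many processed copies of their genes. Of the 10 highest loci of the whole set, 3 were ribosomal proteins. RPS29 (MSTRG.4996) had 1570 and 4998 FPKM in old skin, against 825 and 7338 FPKM in young skin. RPL23A (MSTRG.62945) had 752 and 2392 FPKM in old skin, against 394 and 3042 FPKM in young skin. RPS18 (MSTRG.36785) had 1065 and 1681 FPKM in old skin, against 636 and 2291 FPKM in young skin. In all 3, old 1 exceeded young 1 and old 2 was below young 2.

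The same held for 27 of the 34 cytosolic ribosomal protein loci, or 79.4%, where 31.5% of all tested loci were higher in number 1 and lower in number 2. Their log2 ratios had a median of 0.45 in number 1 and of -0.37 in number 2. With median-of-ratios scaling of the libraries these became 0.37 and -0.28, with 26 of the 34 in that pattern. Among the 52 cytosolic ribosomal protein loci that have a symbol, 50 showed it too, with medians of 0.54 and -0.38. The 50 loci that had no Description but the GO term for a structural constituent of the ribosome showed it less uniformly, with 26 of 50 in the pattern and medians of 0.39 and -0.35. These subsets were drawn after values were seen. Mitochondrial ribosomal proteins (10 loci) had medians of 0.16 and -0.21.

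**Figure D4:**
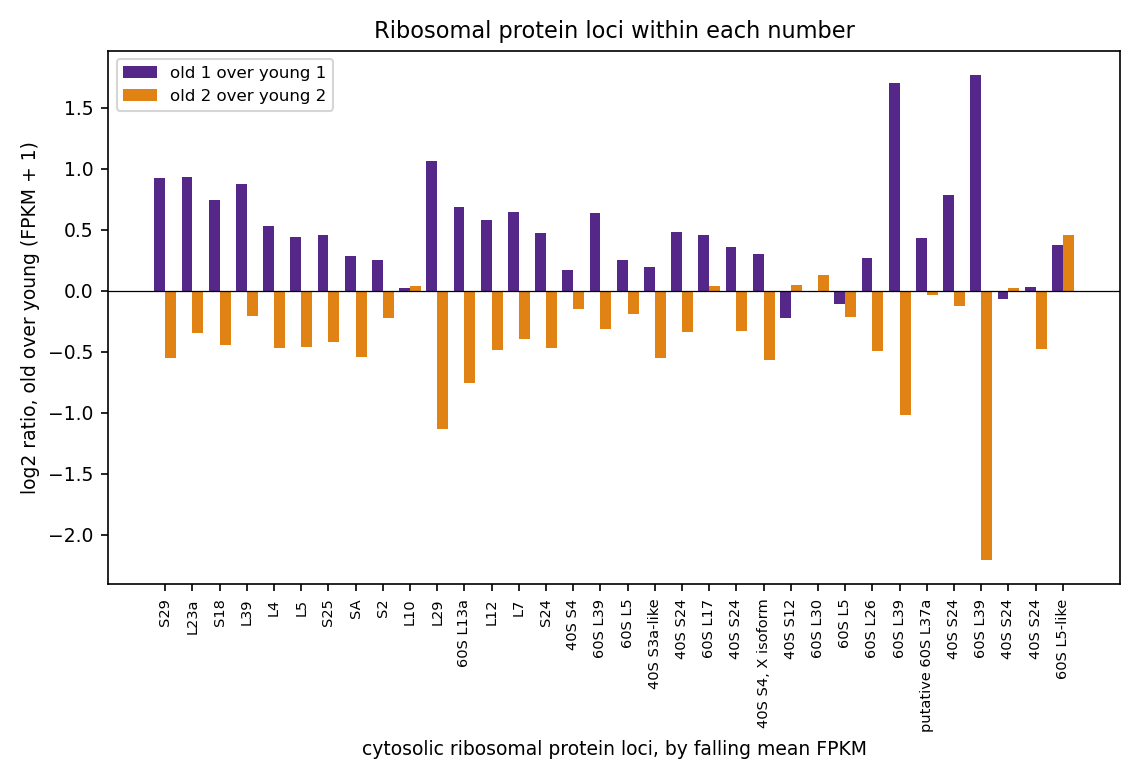
Log2 ratio of FPKM + 1, old over young, in number 1 (purple bars) and number 2 (orange bars) for the 34 cytosolic ribosomal protein loci without a symbol, ordered by falling mean level. The bars point up in number 1 and down in number 2 at 27 of the 34.

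Copies of 1 ribosomal protein did not keep to 1 level. The RPS24 locus with a RefSeq symbol (MSTRG.36108) had 26.4 and 127 FPKM in old skin, against 18.8 and 175 FPKM in young skin. Of the 5 loci called 40S ribosomal protein S24, MSTRG.34231 was the highest, at 11.3 and 16.7 FPKM in old skin and 7.85 and 21.4 FPKM in young skin. MSTRG.91518, another of the 5, had 3.85 and 1.29 FPKM in old skin, against 1.82 and 1.49 FPKM in young skin. A copy of RPL30 (MSTRG.72681) stood at the floor in old 1 and young 1, with 13.4 FPKM in old 2 and 12.1 FPKM in young 2. The sources used here do not say how reads were shared among such copies.

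The translation factors among the loci included EEF1A1 (MSTRG.79513), which brings aminoacyl-tRNA to the ribosome, with 2859 and 1829 FPKM in old skin, against 2110 and 2679 FPKM in young skin. It shared the opposite ratios of the ribosomal proteins. EIF5A (MSTRG.63581), another factor of translation elongation, stood at 85.4 and 191 FPKM in old skin, against 74.2 and 196 FPKM in young skin.

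The second highest locus of the set was named after a protein of the lacrimal gland. MSTRG.85797, described as female-specific lacrimal gland protein-like, had 1812 and 3033 FPKM in old skin, against 3194 and 6285 FPKM in young skin. Both old libraries were below both young ones, though by a small margin between old 2 and young 1, and the log2 difference was -0.93 (SE 1.86). Loci of similar level had no annotation at all. MSTRG.104532 had 179 and 3764 FPKM in old skin, against 823 and 4376 FPKM in young skin. MSTRG.104531 had 211 and 2084 FPKM in old skin, against 761 and 2892 FPKM in young skin. MSTRG.104533 had 116 and 2385 FPKM in old skin, against 471 and 2719 FPKM in young skin. In both numbers these 3 had lower levels in old skin, and all were far higher in number 2 than in number 1. MSTRG.104551 had 67.9 and 2202 FPKM in old skin, against 172 and 1515 FPKM in young skin, lower in number 1 and higher in number 2. The 10 highest loci together held 19.9% and 41.1% of the set's summed FPKM in old 1 and old 2, against 21.3% and 43.9% in young 1 and young 2.

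The larger contrast among these loci lay between the library numbers. The mean of number 1 was over 2-fold above that of number 2, on the log2(FPKM + 1) scale, at 735 of the 2316 loci, or 31.7%, against 24.3% of all tested loci. The opposite held at 253 loci, or 10.9%, against 11.6% of all tested loci. Small RNAs that guide the modification of ribosomal and spliceosomal RNA were the clearest case, small nucleolar RNAs in the nucleolus and Cajal body RNAs in the Cajal body. SNORD17 (MSTRG.20591) had 658 FPKM in old 1 and 656 FPKM in young 1, and stood at the floor in old 2 and young 2. SNORA53 (MSTRG.31777) had 759 FPKM in old 1 and the floor in old 2, against 711 and 0.901 FPKM in young 1 and young 2. SCARNA10 (MSTRG.92023) had 900 and 0.733 FPKM in old skin, against 790 and 1.43 FPKM in young skin. Of the 37 loci of this kind, 27 were over 2-fold higher in number 1 and 1 in number 2. Within number 1 their levels in the ages were close, with a median log2 ratio of 0.11.

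Core histones, whose messages mostly carry no poly(A) tail, behaved in the same way. Of the 18 loci of the histone group, 15 were over 2-fold higher in number 1 and 1 was over 2-fold higher in number 2. The 15 were core histones by their Description, a subset drawn outside the fixed groups. Histone H2A type 1 (MSTRG.37991) had 61.4 FPKM in old 1 and 63.8 FPKM in young 1, with the floor in old 2 and young 2. Histone H2B type 1-like (MSTRG.37995) had 43.0 and 0.506 FPKM in old skin, against 52.1 and 0.726 FPKM in young skin. The replacement histone H3.3 (MSTRG.74703) did not share this, with 21.7 and 29.5 FPKM in old skin and 26.6 and 46.1 FPKM in young skin. The linker histone H1.0 (MSTRG.14245) did not either, with 30.7 and 28.0 FPKM in old skin and 28.4 and 30.8 FPKM in young skin. The libraries with high RFAM structural RNA are the same 2 in which these small RNAs and histones are high, and the part of library preparation in these values was not tested.

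High in number 2 were cornified envelope and undescribed loci. Loricrin (MSTRG.96380), the major protein of the cornified envelope, had 1.84 and 321 FPKM in old skin, against 2.54 and 228 FPKM in young skin. MSTRG.96371, which has no annotation, had 32.0 and 2730 FPKM in old skin, against 16.2 and 363 FPKM in young skin. It was higher in old skin in both numbers, and old 2 was by far the highest library. MSTRG.64556, with ribosome GO terms, had 0.813 and 65.4 FPKM in old skin, against 1.70 and 77.9 FPKM in young skin. The 420 loci with neither Description nor GO term were also split by number, with a median difference of number 1 minus number 2 of 0.76 on the log2 scale, beside 0.50 over all 2316 loci and 0.22 over the other tested loci.

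**Figure D5:**
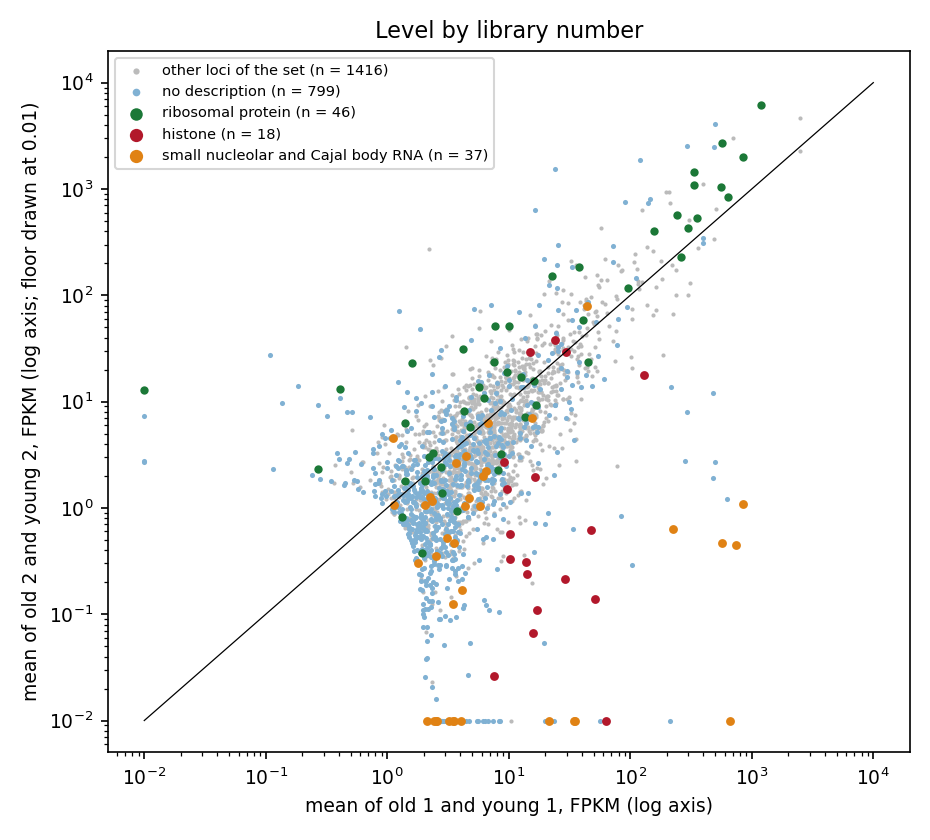
Mean FPKM of the number 1 libraries (x axis, log) against that of the number 2 libraries (y axis, log) for the 2316 loci without a symbol, old and young averaged, with floor values drawn at the edge. Small nucleolar and Cajal body RNAs (orange) and histones (red) mostly lie below the diagonal of equal levels, while the highest ribosomal proteins (green) lie above it.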

How the data were processed

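Total RNA of full-thickness dorsal skin was depleted of ribosomal RNA and sequenced as read pairs, per the labels' protocols. The authors deposited FPKM values, 1 per locus in each of 4 tables, and the tools listed in the submitters' processing notes, with no version, are Bowtie2, TopHat2, cutadapt and FastQC. The sources used here name no genome build or annotation, so no coordinates are printed. FPKM without counts leaves the depth unknown, and no counting error could be given. The summed FPKM per library ran from 401039 to 445064.

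GEO holds 1 sample per age, and each of its 2 tables was taken as 1 library. Above the floor, identical values in any pair of libraries numbered 0. Loci averaging 1 FPKM or more were tested on log2(FPKM + 1) in R 4.3.3 with limma 3.58.1. The model held age alone, with moderation by a mean-variance trend, two-sided tests and Benjamini-Hochberg adjustment over all tested loci. The fit was also run on simulated data with the same noise at all loci, and no result above rests on that run. Ratios of FPKM + 1 within a number have no test, and they understate the change of low loci. Plain folds are on FPKM.

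The members and the lists were chosen with earlier results of these data known. Named were MSTRG.33704, the 10 loci per direction whose smaller within-number ratio was largest, the 10 of highest mean, in each group of 3 or more the 2 of highest mean and the 1 with the most concordant ratio, the loci next to the minimum mean, and the 5 per direction that differed most between numbers. Not all of these are printed. Other loci of the groups are described outside these rules. Among them are HSP70 1B, the interleukin receptor subunits, fatty acid binding protein 5, apolipoprotein L6-like, SERPINB7, LAMA3 and cytochrome P450 2B4. No rule set before the values were seen chose these loci. Groups follow words of the Description, in a fixed order. Some hold loci that the words caught by chance: trichoplein among the keratins, FANCC among cytokine products, ELL2 and TCEA3 in translation, and 3 nuclear envelope proteins among the 5 retroelement-derived loci, whose median log2 ratios were 0.03 and 0.08. Small nucleolar and Cajal body RNAs were made a group after values were seen. Names came from the Description, and RefSeq gene names (assembly H.glaber_assembly_v1.0) from its NCBI gene number. Summaries and plots used pandas 2.3.3, numpy 2.4.6 and matplotlib 3.10.9 in Python 3.11.15.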

Additional observations from a re-analysis of the deposited data

How the results depend on the processing

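Calls of age among the 2316 loci depended on single libraries. The counts of 0 higher and 0 lower stayed 0 with a pseudocount of 0.1 FPKM, median-of-ratios scaling, a minimum mean of 5 FPKM, no filter, no trend and a threshold of 0.1. With each library left out in turn they ran from 0 to 8 higher and from 0 to 11 lower. The lone library of an age was then assumed to vary like those of the other age. Small nucleolar RNAs such as SNORD17 were called lower without old 1 and higher without young 1. Leaving out 1 library sets unequal numbers against each other, so a locus that differs between numbers then appears to differ with age. At an unadjusted p of 0.05 there were 7 higher and 6 lower. With the library number as a replicate block, 1 locus was called higher and 0 lower by limma. The locus was MSTRG.33704, which was chosen for its known pattern, so the call is no support. At an unadjusted p of 0.05 the block gave 75 higher and 83 lower, or 3.24% and 3.58%, against 2.96% and 3.61% of all tested loci. The numbers are not known to pair animals, although deviations of same-numbered libraries correlated at 0.823 over the tested loci. Of the 13 loci at least 2-fold higher and the 12 at least 2-fold lower in both numbers, a pseudocount of 0.1 FPKM made 28 and 30, a minimum mean of 5 FPKM made 7 and 5, and a 4-fold threshold left 2 and 3. Reversal was checked only for the 20 loci whose within-number ratios agreed most, and none of their differences reversed under the alternatives run. The other named loci were outside that check. Among them, SNORD17 did change sign, with a log2 difference of -4.68 without old 1 and 4.68 without young 1. Median-of-ratios scaling shifted the median ratio of all tested loci by under 0.1 on the log2 scale.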
